A study of Mus musculus with 6 samples.

Results

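The nuclei described here were myofibre nuclei, the nuclei of skeletal muscle fibres, that were carried along with mouse tibial periosteum in single-nucleus RNA sequencing (snRNAseq). They were chosen from the readout itself: a nucleus was kept when at least 200 genes were detected, when mitochondrial genes held under 2% and ribosomal protein genes under 1.5% of its unique molecular identifiers (UMIs, 1 per captured transcript), and it was called a myofibre nucleus when Ttn, Neb, Ckm, Acta1, Mybpc1 and Ryr1 together held 2% or more of its UMIs. By this rule 1236 of 8339 kept nuclei, from 13551 barcodes, were myofibre nuclei. The 6 genes encode titin, nebulin, muscle creatine kinase, skeletal actin, slow myosin binding protein C and the calcium release channel of the sarcoplasmic reticulum.

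The labels give the genotype of all 6 libraries as C57BL6, and the mice were aged 12 weeks. Uninjured replicate 1 also held 29 UMIs of EGFP and 14 of tdTomato, reporters that a C57BL6 mouse lacks. The uninjured group (2 libraries) was the periosteum scraped from intact tibias of 4 mice per pool, dissected free of muscle. The fracture groups were the activated periosteum and the hematoma, collected together from pools of 4 to 9 mice after an open, non-stabilized tibial fracture, at day 3 (2 libraries), day 5 (1 library) and day 7 (1 library). Nuclei were sorted on a Sytox nuclear stain, so no cell type was selected, and no library was a muscle sample. How the fibres came into the samples, and which muscles they came from, is not given in the sources used here.

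A myofibre is a single long cell with many nuclei. Its adult type is read from its myosin heavy chain: Myh4 marks the fastest fibres (type 2B), Myh1 type 2X, Myh2 type 2A and Myh7 the slow type 1 fibres, and most fibres around the mouse tibia are fast. Nuclei under the nerve terminal transcribe the acetylcholine receptor and its organisers (neuromuscular junction), and nuclei at the fibre tips transcribe tendon-facing matrix and adhesion genes (myotendinous junction). When a fibre loses its nerve, genes such as Runx1, Ncam1, Musk, Ampd3 and the embryonic receptor subunits are known to come on along its whole length. When a fibre is destroyed, satellite cells rebuild it and the new fibre first makes the embryonic and neonatal myosins Myh3 and Myh8.

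The myofibre nuclei numbered 156 and 251 in uninjured periosteum, 235 and 259 at day 3, then 118 (day 5) and 217 (day 7). This was 24.2% (exact binomial 95% interval 21.0 to 27.7) and 21.1% (18.8 to 23.6) of the kept nuclei of uninjured periosteum. At day 3 it was 31.2% (27.9 to 34.6) and 13.2% (11.7 to 14.8), 4.84% on day 5 (4.03 to 5.77) and 16.1% on day 7 (14.1 to 18.1). The 2 day 3 libraries lay on either side of the uninjured ones, so their mean difference of -0.5 percentage points was smaller than the gap between them. All intervals in the text are 95% and cover counting error only, and with 2 libraries a group at most no share was tested.

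The depth per myofibre nucleus differed between libraries. The median was 1834 and 6615 UMIs in the uninjured libraries, 3109 and 7317 at day 3, then 2882 (day 5) and 1665 (day 7), and the summed UMIs of the myofibre nuclei ranged from 441697 at day 5 to 2851770 in day 3 replicate 2. Replicates 2 of both groups were the deeper ones. They also differed in sex: in the myofibre nuclei of uninjured replicate 2 the female transcript Xist was at 0.479 CPM (UMIs of the gene scaled to the same total of 1e6 UMIs in the myofibre nuclei of each library) and Ddx3y at 51.7, whereas in day 3 replicate 2 Xist was at 1273 and Ddx3y at 0. The other 4 libraries held both. Of 13551 barcodes, 36 occurrences were of a barcode shared with another library, and 1 of these was a myofibre nucleus. Scrublet marked 7 myofibre nuclei as doublets, but marked 1 nucleus each in 2 whole libraries, where it could not be said to have worked.

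RNA of other cells was present in the myofibre nuclei and moved with the libraries. Nuclei with 2 or more UMIs of endothelial, immune, neutrophil or stromal markers were 24.4% and 70.1% of the myofibre nuclei in the uninjured libraries, 21.3% and 96.9% at day 3, then 74.6% (day 5) and 40.6% (day 7). Summed over the 8 stromal markers, the level was 168.9 and 444.5 CPM in the uninjured libraries, 160.4 and 1082 at day 3, then 1129 (day 5) and 748.9 (day 7). The 8 immune markers summed to 22.3 and 43.5 CPM in uninjured periosteum, 66.9 and 215.9 at day 3, then 29.7 (day 5) and 34.2 (day 7). Day 3 replicate 2 was highest for immune markers, and 0 of 4 tested immune, 0 of 6 tested stromal and 0 of 4 tested endothelial markers were called different at day 3. Over all tested genes 0.976% were called, so counts of 0 say little for lists this short. Of the 8 immune markers 4 were tested. All 4 were positive (median log2 change 2.42) and 2 had an unadjusted edgeR p under 0.05. All 4 endothelial ones were negative (median -1.69) and 4 were under it. Of the stromal ones 4 were positive and 2 negative (median 1.46), and 1 was under it. Markers low in 1 group may have entered the test through the other group, so these signs are a description only. The part of this RNA in the results below was not tested, and values without these nuclei are given below for the named genes whose call they change.

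**Figure D1:**
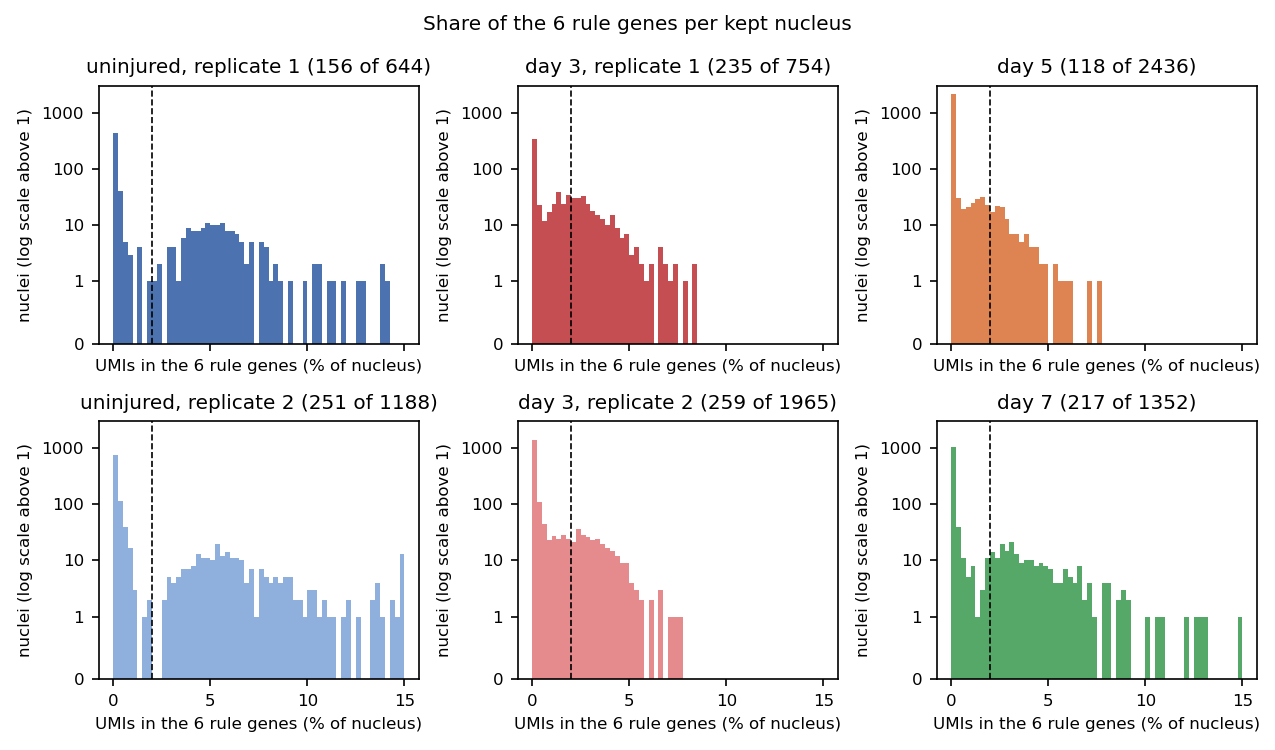
Number of kept nuclei (vertical axis, log scale above 1) by the percentage of their UMIs in the 6 rule genes (horizontal axis, the last bar holds 15% and more), for each library; the dashed line is the limit of 2%, and titles give myofibre nuclei of kept nuclei. In the uninjured libraries few nuclei lay between 1% and 2%, whereas at days 3 and 5 the distribution ran through the limit.

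The share of the 6 rule genes, which chose the nuclei and is given as a description, had a median of 5.31% and 5.93% in the uninjured myofibre nuclei, 3.00% and 3.15% at day 3, then 2.74% (day 5) and 3.84% (day 7). Just under the limit, from 1% to 2%, lay 5 and 6 nuclei of the uninjured libraries, 122 and 104 at day 3, then 109 (day 5) and 23 (day 7). The uninjured groups were therefore cleanly separated by the rule and the fracture groups were not. In day 3 replicate 1, the 35 nuclei between 1.75% and 2% held Dmd (dystrophin) at 15740 CPM and Rbfox1, a muscle splicing factor, at 5867 CPM, and the 30 nuclei between 2% and 2.25% held them at 13560 and 5024 CPM. At day 5 the 23 nuclei just outside held Dmd at 19570 CPM and the 17 just inside at 16920 CPM. In day 3 replicate 2 the 24 nuclei just outside held less Dmd, 9942 against 13290 CPM in the 21 just inside, and more of the leukocyte gene Ptprc, 309.6 against 59.97 CPM, at a median of 11890 against 6007 UMIs. Dmd was thus at a similar level on both sides of the limit in day 3 replicate 1 and day 5, and in day 3 replicate 2 the nuclei outside also held leukocyte RNA.

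The label was checked on genes that the rule did not use. The 15 genes that stood highest in the myofibre nuclei over the other nuclei, on the mean of log2 ratios with 10 CPM added, included Agbl1, Mylk4, Trdn, Myh1, Myot, Myh4, Actn2, Ppp1r3a, Mybpc2, Myh2, Mypn, Hs3st5, Ampd1 and Rbfox1. Most of them encode parts of the sarcomere, the triad or muscle metabolism: Trdn is triadin of the calcium release unit, Actn2 is alpha-actinin of the Z-disc, Ppp1r3a targets a phosphatase to glycogen, and Ampd1 is muscle AMP deaminase. Trdn was at 2556 to 8421 CPM in the myofibre nuclei and at 57.1 to 540.7 CPM in the others over the 6 libraries. The defining satellite cell gene Pax7 was at 1.86 and 12.9 CPM in the uninjured myofibre nuclei and at 6.37 to 10.7 CPM in the 4 fracture libraries. The 9 satellite cell and myoblast genes together were at 37.1 and 39.2 CPM uninjured, 88.2 and 135 CPM at day 3, 114.3 CPM at day 5 and 130.5 CPM at day 7. In the other nuclei they were at 162.7 and 142.9 CPM uninjured, 116.9 and 192.1 CPM at day 3, 111.2 CPM at day 5 and 34.4 CPM at day 7. The myofibre nuclei thus held more of this list after fracture than before it, and at day 7 more than the other nuclei. The label was kept on the sarcomere and triad genes; the rule does not separate nuclei of myoblasts or young fibres from those of mature fibres.

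At day 3 against uninjured periosteum, UMIs were summed over the myofibre nuclei of each library and tested with edgeR's quasi-likelihood test over 9217 genes, with Benjamini-Hochberg adjustment. The call was an adjusted p under 0.05: 59 genes (0.64%) were higher and 31 (0.336%) lower, 90 in all (0.976%), while 1519 (16.48%) had an unadjusted p under 0.05. The median log2 change of all tested genes was 0.005. All 90 called genes kept their direction whichever day 3 library was set against whichever uninjured one (4 pairs), which includes the pair of replicates 1, both of which held transcripts of males and females. The calls were made on these same 4 sums, so this is no separate support, and the share over all tested genes is not given here. The same limit holds wherever groups are said below not to overlap. The labels give no animal or batch per replicate, and the 2 libraries of a group are the only replication, so p-values measure the spread between these pools. Nothing below is a test of the 6 rule genes, of which 0 were called.

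The calls rested unequally on the libraries and on how the nuclei were chosen. Without uninjured replicate 2 there were 31 genes higher and 30 lower, and 31 of the 90 calls remained. Without uninjured replicate 1 there were 102 higher and 151 lower, without day 3 replicate 1 198 and 170, and without day 3 replicate 2 289 and 208. Among the genes named below, the adjusted p without uninjured replicate 2 was 0.056 for Ampd3, 0.056 for Mylk4, 0.066 for Shroom3, 0.076 for Hmox1, 0.086 for Mt1, 0.075 for Myf6, 0.13 for Stat3, 0.097 for Clcn1, 0.092 for H19, 0.070 for Rpl3l, 0.076 for Slc2a4 and 0.067 for Tead4 (edgeR). Without uninjured replicate 1 it was 0.058 for Myf6, 0.070 for Stat3 and 0.061 for Slc2a4 (edgeR). When nuclei with 2 or more UMIs of other cell types were removed, which left 8 nuclei in day 3 replicate 2, 27 of the 90 calls remained, and the adjusted p was 0.13 for Runx1, 0.28 for Myh3, 0.43 for Ncam1, 0.063 for Slc41a3, 0.074 for Mt1, 0.093 for Myf6, 0.051 for Stat3, 0.063 for Clcn1, 0.063 for Rpl3l, 0.14 for Slc2a4 and 0.072 for Tead4 (edgeR). With a limit of 5% in place of 2%, 0 of 3657 genes were called and 421 had an unadjusted p under 0.05 (edgeR), and DESeq2 at 2% called 223 higher and 220 lower. Of 34 followed genes, 31 could be tested with those nuclei removed and 25 at the limit of 5%, where 0 were called, and 0 of the 464 values obtained reversed direction. These genes were chosen because they were called in the same libraries. A reversal was therefore unlikely, and its absence is no separate support.

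Among the genes that fell at day 3 were some of the fast contractile and metabolic fibre. Mylk4, a myosin light chain kinase of striated muscle, was at 3933 and 7928 CPM in the uninjured libraries and at 250.6 and 644.9 CPM at day 3. The groups lay far apart, and the log2 change was -3.83 ± 0.55 (SE, edgeR adjusted p = 0.043). Ckmt2, the mitochondrial creatine kinase of muscle, was at 534.5 and 378 CPM in the uninjured libraries and at 13.8 and 49.9 CPM at day 3, a log2 change of -3.91 ± 0.52 (edgeR adjusted p = 0.037). Rpl3l, the muscle form of ribosomal protein L3, was at 287.7 and 348.8 CPM and at 59.5 and 79.5 CPM (log2 change -2.25 ± 0.29, edgeR adjusted p = 0.036). In each of these genes the higher day 3 library stayed under the lower uninjured one. At day 5 and day 7, in 1 library each, Mylk4 was at 347.5 and 470.7 CPM, Ckmt2 at 32.0 and 62.1 CPM and Rpl3l at 66.3 and 107 CPM, all again below both uninjured libraries.

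Promoter sequence is shown for these genes as examples of genes that fell, and for Ankrd1, the gene of mechanical stress and fibre tips that rose, as a contrast. They were chosen after their values were seen, and larger called decreases than that of Rpl3l, such as those of Smox and Kcnn2, are not shown. Mylk4, Ckmt2 and Rpl3l all hold the E-box marked below, which 10 of 25 called-lower genes held, so they do not stand for the called-lower genes as a set. Each run is the 250 bases before the RefSeq start (GRCm38.p6), 5′ to 3′ on the strand of the gene. Capitals mark the E-box CAGCTG, a palindrome that MyoD-family factors are known to bind, and the core CATTCC, or GGAATG on the other strand, known from TEAD factors. The regions are chr13:32783965-32784214 (minus strand) for Mylk4, chr13:91876886-91877135 (minus strand) for Ckmt2, chr17:24727576-24727825 (plus strand) for Rpl3l and chr19:36119845-36120094 (minus strand) for Ankrd1.
Mylk4: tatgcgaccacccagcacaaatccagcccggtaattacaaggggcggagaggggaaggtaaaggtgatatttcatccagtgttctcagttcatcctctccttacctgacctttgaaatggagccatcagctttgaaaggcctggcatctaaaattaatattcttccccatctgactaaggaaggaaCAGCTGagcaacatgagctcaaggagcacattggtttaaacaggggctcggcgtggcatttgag
Ckmt2: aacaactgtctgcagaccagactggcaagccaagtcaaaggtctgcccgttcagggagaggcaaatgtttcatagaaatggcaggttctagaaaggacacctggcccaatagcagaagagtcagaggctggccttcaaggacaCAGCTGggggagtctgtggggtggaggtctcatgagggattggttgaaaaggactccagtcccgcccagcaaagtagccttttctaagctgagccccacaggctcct
Rpl3l: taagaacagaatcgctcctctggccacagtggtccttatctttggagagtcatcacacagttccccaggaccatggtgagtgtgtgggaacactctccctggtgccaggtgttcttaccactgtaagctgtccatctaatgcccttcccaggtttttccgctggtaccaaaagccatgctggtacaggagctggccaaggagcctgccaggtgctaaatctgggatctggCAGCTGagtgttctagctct
Ankrd1: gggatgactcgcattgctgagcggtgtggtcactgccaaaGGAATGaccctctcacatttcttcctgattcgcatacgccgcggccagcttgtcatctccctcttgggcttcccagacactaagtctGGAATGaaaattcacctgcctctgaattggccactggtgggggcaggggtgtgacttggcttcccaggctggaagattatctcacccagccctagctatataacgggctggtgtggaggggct

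The E-box began 64 bases before the start of Mylk4, 107 before that of Ckmt2 and 20 before that of Rpl3l. It was found in 10 of the 25 called-lower genes with a promoter in the table (40.0%), in 7 of 39 called-higher genes (17.95%) and in 1035 of 7189 genes tested (14.4%). Over promoters of this length, it was in 11 of the 40 promoters of called-lower genes (27.5%) and in 4271 of all 32851 promoters (13.0%). The TEAD core was in 8 of 39 called-higher genes (20.51%), in 2 of 25 called-lower genes (8.0%) and in 12.69% of the genes tested, and 2 of them stood 210 and 123 bases before the start of Ankrd1. Of 3 further motifs searched on both strands, the RUNX core TGTGGT was in 20.51% of the called-higher genes, 20.0% of the called-lower genes and 12.7% of the genes tested. The AP-1 motif TGACTCA was in 2.564%, 4.0% and 3.728%, and the stress response element CCCCT in 82.05%, 60.0% and 69.7%. Such matches describe letters, not binding.

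**Figure D2:**
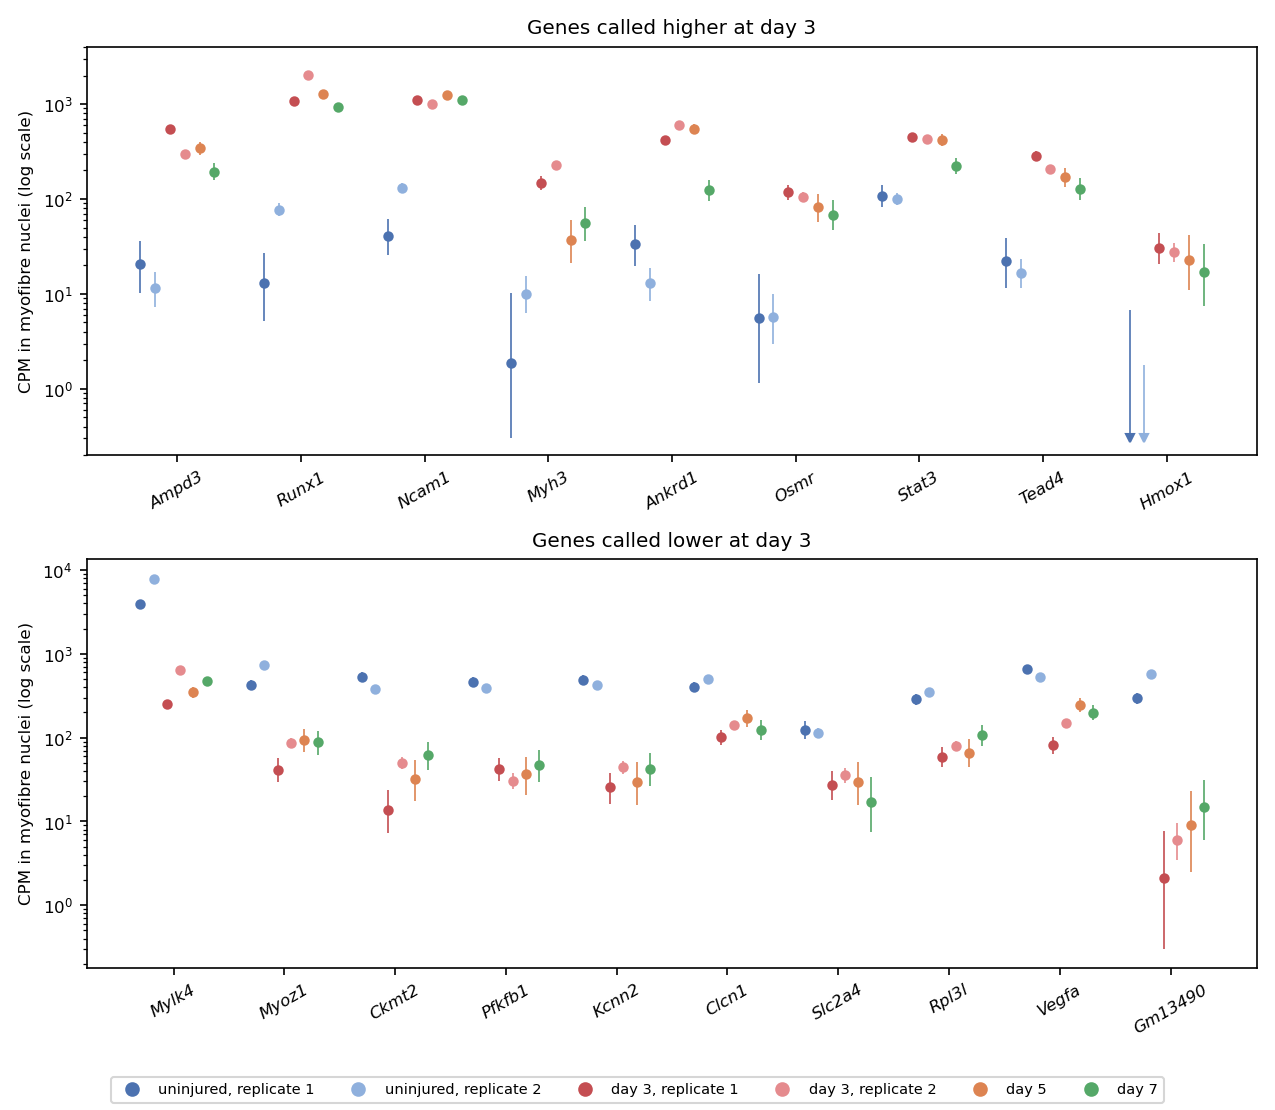
CPM in myofibre nuclei (log scale) of 9 genes called higher and 10 called lower at day 3, 1 point per library with its exact Poisson interval; triangles mark libraries with 0 UMIs. Both day 3 points lay on one side of both uninjured points in every gene drawn, and the single day 5 and day 7 points lay on that same side in each gene.

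Other genes that fell encode a regulator of glycolysis, a glucose transporter and ion channels. Pfkfb1, which sets fructose 2,6-bisphosphate and with it glycolytic flux, was at 465.9 and 388.5 CPM in the uninjured libraries and at 42.5 and 30.6 CPM at day 3 (log2 change -3.58 ± 0.41, edgeR adjusted p = 0.029). Slc2a4, the insulin-regulated glucose transporter GLUT4, was at 124.4 and 113.9 CPM and then at 27.6 and 35.5 CPM. Clcn1, the chloride channel that keeps the fibre membrane quiet after an action potential, was at 400.9 and 503.4 CPM and then at 100.9 and 143.1 CPM. Both passed the edgeR test, with adjusted p of 0.046 and 0.043. Kcnn2, a calcium-activated potassium channel, was at 490 and 421 CPM and then at 25.5 and 44.3 CPM (log2 change -3.77 ± 0.34, edgeR adjusted p = 0.021). Myoz1, a Z-disc protein of fast fibres, was at 430.6 and 731.6 CPM and then at 41.4 and 86.9 CPM (edgeR adjusted p = 0.036). Day 5 and day 7 held Pfkfb1 at 36.6 and 47.1 CPM, Kcnn2 at 29.7 and 42.8 CPM and Myoz1 at 93.7 and 87.7 CPM.

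Among the other large decreases were Smox (spermine oxidase, 146.6 and 152.6 CPM against 11.7 and 12.3), Map2k6 (a kinase upstream of p38, 384.2 and 447.9 against 35.1 and 35.5) and Slc41a3 (a magnesium transporter, 155.9 and 78.5 against 7.43 and 7.39), all in the order uninjured and then day 3. The groups did not overlap in any of them. Their log2 changes were -3.71 ± 0.33, -3.60 ± 0.32 and -4.05 ± 0.51, with edgeR adjusted p of 0.021, 0.021 and 0.036. Vegfa, the endothelial growth factor, was at 657 and 532.6 CPM in uninjured myofibre nuclei and at 80.7 and 148.8 CPM at day 3 (log2 change -2.46 ± 0.34, edgeR adjusted p = 0.039). At day 5 and day 7 it was at 246.9 and 199 CPM. The long noncoding RNA Gm13490 (chr2:51656966-51732009, minus strand, GENCODE vM21) showed the largest called decrease, from 295.1 and 573.7 CPM to 2.12 and 5.98 CPM (log2 change -6.65 ± 0.54, edgeR adjusted p = 0.018). A second noncoding RNA, 2310016D03Rik (chr12:30410559-30467358, minus strand), went from 230.1 and 226.8 CPM to 9.56 and 9.85 CPM (edgeR adjusted p = 0.018). Both noncoding RNAs stayed low in the later libraries, at 9.14 and 14.98 CPM and at 43.4 and 44.9 CPM at days 5 and 7.

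The genes that rose at day 3 included several known from denervated fibres. Ampd3, the AMP deaminase of non-muscle tissues, was at 20.4 and 11.5 CPM and then at 542.7 and 298.9 CPM (log2 change 4.86 ± 0.60, edgeR adjusted p = 0.035). Runx1, a transcription factor that denervated muscle switches on, was at 13.0 and 77.0 CPM and then at 1087 and 2026 CPM (log2 change 4.94 ± 0.74, edgeR adjusted p = 0.043). Ncam1, a neural adhesion molecule that spreads over denervated and regenerating fibres, was at 40.8 and 130.2 CPM and then at 1093 and 1014 CPM (log2 change 3.58 ± 0.56, edgeR adjusted p = 0.049). The later libraries kept Runx1 at 1269 and 937.2 CPM and Ncam1 at 1255 and 1093 CPM at days 5 and 7, and Ampd3 at 342.9 and 194.7 CPM. All 3 genes stayed above both uninjured libraries there.

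Runx1 and Ncam1 are also transcribed by other cells of the callus. Ncam1 rose in the other nuclei too (log2 change 2.805, edgeR adjusted p = 0.014). The difference of its day 3 change between myofibre and other nuclei was not called (0.875 ± 0.541, edgeR adjusted p = 0.47). In the other nuclei Runx1 was at 62.4 and 231.3 CPM in the uninjured libraries and at 1584 and 2545 CPM at day 3, and the difference of its day 3 change between myofibre and other nuclei was not called (difference 1.29 ± 0.45 on the log2 scale, edgeR adjusted p = 0.14). With each nucleus thinned to 500 UMIs, the share of myofibre nuclei with a Runx1 UMI was 0 of 156 (up to 1.92% allowed) and 3.59% (9 of 251) in the uninjured libraries and 28.9% and 34.4% at day 3. It was 37.6% at day 5 and 29.5% at day 7. Endothelial nuclei of the same libraries, with at least 3 endothelial UMIs, showed 2.12% and 1.56% uninjured, 11.1% and 7.46% at day 3, then 6.16% (day 5) and 15.7% (day 7). The myofibre nuclei were above the endothelial ones in all 4 fracture libraries, and immune nuclei held Runx1 in 34.8% and 43.7% at day 3. Median depths before thinning were 3109 and 7317 UMIs in the myofibre and 1768 and 8785 UMIs in the endothelial nuclei of day 3. Without thinning the mean difference between day 3 and uninjured myofibre nuclei was 67.9 percentage points, against 29.9 with it.

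For Ampd3 the increase was larger in the myofibre nuclei than in the other nuclei by the test of the difference. That test fitted sums of myofibre and of other nuclei of the same 4 libraries with the library as a block; over 12753 genes, 287 (2.25%) rose more and 241 (1.89%) rose less or fell more in myofibre than in other nuclei, 528 in all (4.14%). The difference for Ampd3 was 2.66 ± 0.52 on the log2 scale (edgeR adjusted p = 0.015). The other nuclei include the nuclei of 1% to 2% just outside the limit, and their cell makeup differed between the groups. Of the 90 genes called at day 3, 24 of those higher and 11 of those lower were called in the same direction here, among them Osmr, Tead4, Shroom3, Rrad, Gm12153, Hhipl1 and Mt1 (higher) and Smox, Map2k6, Pfkfb1, Slc41a3 and Vegfa (lower). 1 gene, 5730419F03Rik, was called in the opposite direction, having risen more in the other nuclei. For Ankrd1, Myh3 and Myf6 the difference was not called (edgeR adjusted p = 0.66, 0.13 and 0.14). These genes also rose in the other nuclei, with log2 changes of 5.61, 6.66 and 6.39 (edgeR adjusted p = 0.014, 0.014 and 0.035). In the myofibre nuclei the changes were 4.53, 4.60 and 2.39. Muscle RNA also stood higher in the other nuclei: Ttn was at 273.7 and 335.8 CPM there uninjured and at 3992 and 1426 CPM at day 3. Whether the rises of Ankrd1, Myh3 and Myf6 were particular to the myofibre nuclei therefore cannot be told from this test.

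The atrophy and denervation list as a whole was mixed. Of its 14 genes 13 were tested, 3 were called higher (Runx1 and Ampd3 among them) and 0 lower, with a median log2 change of 1.06. Fbxo32 and Trim63, the ubiquitin ligases that mark wasting muscle, did not pass: Fbxo32 was at 1208 and 195.7 CPM in the uninjured libraries and at 1729 and 1758 CPM at day 3 (log2 change 1.26 ± 0.78, edgeR adjusted p = 0.51). The uninjured libraries stood far apart from each other here. The same order held for Trim63 (929.9 and 254.6 CPM), for Foxo1, the transcription factor upstream of both (796.2 and 220.6 CPM), and for Pdk4, a switch from glucose to fat use (1028 and 134.9 CPM). Uninjured replicate 1 was thus high in these 4 genes and replicate 2 low. For Trim63 the change was lower in myofibre than in other nuclei (difference -3.94, edgeR adjusted p = 0.0091). At day 7 Fbxo32 was at 755.3 CPM and Trim63 at 327.4 CPM, between the 2 uninjured values.

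At the junctions, the neuromuscular list (15 genes, 10 tested) had 0 called in either direction and a median log2 change of 0.61. Chrna1, the alpha subunit of the acetylcholine receptor, had 0 and 2.87 CPM in the uninjured libraries and 31.9 and 84.8 CPM at day 3 (log2 change 4.66 ± 0.75), just outside the threshold with an edgeR adjusted p of 0.051. It was at 80.01 CPM at day 5 and 49.2 CPM at day 7. Musk, the receptor kinase that organises the synapse, was at 180 and 241.6 CPM and then at 680.7 and 473 CPM, with 756.7 CPM at day 5 and 378.7 CPM at day 7. Its groups did not overlap, and it did not pass (log2 change 1.46 ± 0.40, edgeR adjusted p = 0.14). Chrng, the embryonic gamma subunit, was at 7.42 and 2.87 CPM and then at 46.7 and 51.3 CPM (edgeR adjusted p = 0.055). Chrne, the adult subunit that replaces it, was at 4.22 CPM or less in all libraries but day 5, where it was at 29.7 CPM. Lrp4, the receptor for nerve agrin, and Dok7, the adaptor of Musk, were not higher: Lrp4 was at 27.8 and 48.8 CPM and then at 5.31 and 15.8 CPM (edgeR adjusted p = 0.14), and Dok7 at 42.7 and 46.9 CPM and then at 25.5 and 43.6 CPM.

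Per nucleus, Musk was found in 6.41% (3.12 to 11.5) and 7.97% (4.93 to 12.0) of the uninjured myofibre nuclei thinned to 500 UMIs. At day 3 it was in 27.7% (22.04 to 33.9) and 14.7% (10.6 to 19.6), at day 5 in 22.2% (15.1 to 30.8) and at day 7 in 14.8% (10.3 to 20.2). Endothelial nuclei held it in 0 to 1.49% over the 6 libraries, below every myofibre share. By counting error, the intervals of day 3 replicate 1 and of day 5 lay above both uninjured ones, and those of day 3 replicate 2 and of day 7 overlapped the interval of at least 1 uninjured library. Utrn, the synaptic homologue of dystrophin, was at 40.8 and 117.2 CPM and then at 352.6 and 313.7 CPM (edgeR adjusted p = 0.11), while other nuclei held far more of it, 1905 and 1818 CPM uninjured and 566.4 and 697.1 CPM at day 3. Its change did differ between the classes (difference 3.66, edgeR adjusted p = 0.0034).

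The myotendinous list (6 genes, all tested) had 1 gene called higher, Ankrd1, and 0 lower, with a median log2 change of -1.27. Ankrd1, which binds titin and follows mechanical stress, was at 33.4 and 12.9 CPM and then at 419.5 and 596.4 CPM (log2 change 4.53 ± 0.52, edgeR adjusted p = 0.029). It was at 546.3 CPM at day 5 and at 124.1 CPM at day 7. The tip collagen Col22a1 did not move with it: it was at 26.0 and 112.9 CPM uninjured and at 10.6 and 29.5 CPM at day 3 (edgeR adjusted p = 0.24). Its UMIs were concentrated in few nuclei. In uninjured replicate 2, 17 of 251 nuclei with 3 or more Col22a1 UMIs held 96.2% of them, and such nuclei numbered 1 in uninjured replicate 1, 0 and 3 at day 3, then 1 (day 5) and 2 (day 7). Ankrd1 was spread more widely, in 1.92% and 2.39% of the uninjured nuclei at 500 UMIs and in 15.3% and 17.8% at day 3, against 0 of 36 and 0 of 67 endothelial nuclei at day 3, which allows up to 8.33% and 4.48%.

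**Figure D3:**
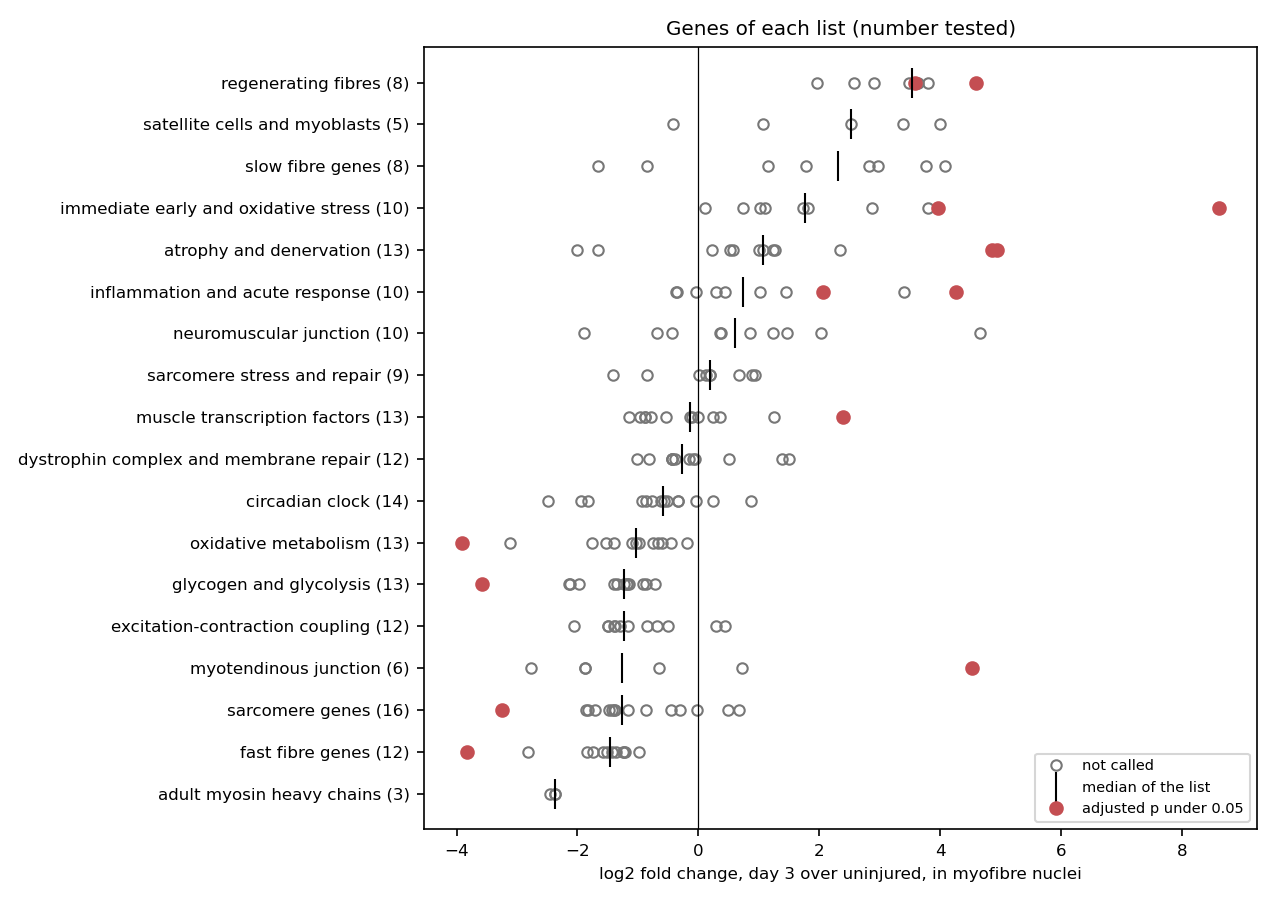
Log2 change at day 3 over uninjured (horizontal axis) of each tested gene of 18 gene lists, with the number tested in brackets; filled points have an edgeR adjusted p under 0.05 and bars mark the median of the list. The lists of adult fast fibre, sarcomere and metabolism lay left of 0 and those of regenerating and slow fibres right of it, with few filled points; Hmox1, at the far right, had 0 uninjured UMIs and its position depends on the prior count. Genes not reported here are counted in the brackets and medians but not drawn.

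The adult fast fibre genes were lower in value at day 3, but 1 of them passed. Myh4 was at 1505 and 2311 CPM in the uninjured libraries and at 224.1 and 519.7 CPM at day 3 (log2 change -2.46 ± 0.42, edgeR adjusted p = 0.058). Myh1 was at 1554 and 3172 CPM and then at 255.9 and 727.6 CPM (edgeR adjusted p = 0.088), and Myh2 at 1030 and 519.2 CPM and then at 23.4 and 318.2 CPM (edgeR adjusted p = 0.28). None of the 3 had overlapping groups, and none was called; their sequences are near-identical, so reads may have been split between them or dropped. In the 12 fast fibre genes, all were tested and negative, 1 was called (Mylk4), and the median log2 change was -1.47. In the 16 sarcomere genes 1 was called (Myoz1), and 14 were negative with a median of -1.27. Myhas, a noncoding RNA antisense within the myosin cluster (chr11:67211256-67237573, minus strand), fell from 310 and 299.5 CPM to 21.2 and 46.1 CPM (log2 change -3.24 ± 0.35, edgeR adjusted p = 0.029).

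The proportions of the myosins moved less than their amount. Of the UMIs of Myh4, Myh1, Myh2 and Myh7, which are not corrected for gene length and are compared only between libraries, Myh4 held 36.8% and 38.5% in the uninjured libraries and 44.3% and 32.7% at day 3. Myh1 held 38.0% and 52.9% and then 50.6% and 45.8%, and Myh2 25.2% and 8.65% and then 4.62% and 20.0%. For these 3 genes the day 3 values showed no direction shared by both libraries. Myh7 held 0.0907% and 0.00797% uninjured, 0.42% and 1.42% at day 3, then 1.75% (day 5) and 0.092% (day 7). Both day 3 libraries stood above both uninjured ones for Myh7, the first with 2 UMIs. Of nuclei with 3 or more of these UMIs, 127 and 238 uninjured, 52 and 134 at day 3, then 57 (day 5) and 103 (day 7), most were led by 1 gene, with over 90% of the UMIs from a single myosin in 66.9% to 81.9% of them. The share of nuclei with none also differed: 3.20% and 1.59% of the uninjured myofibre nuclei had no UMI of the 4 genes, against 63.4% and 34.4% at day 3, then 28.0% (day 5) and 29.95% (day 7). Within each replicated group the deeper library had the lower share. With each nucleus thinned to 500 UMIs, 82.1% and 89.6% of the uninjured myofibre nuclei held a UMI of the 4 genes, against 18.7% and 39.0% at day 3, then 55.6% (day 5) and 52.5% (day 7). Endothelial nuclei held one in 12.2% and 9.34% uninjured, 0 of 36 and 1.49% at day 3, then 1.42% (day 5) and 5.71% (day 7). The background was therefore also higher before fracture, and its part in the shares of the myofibre nuclei was not tested.

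**Figure D4:**
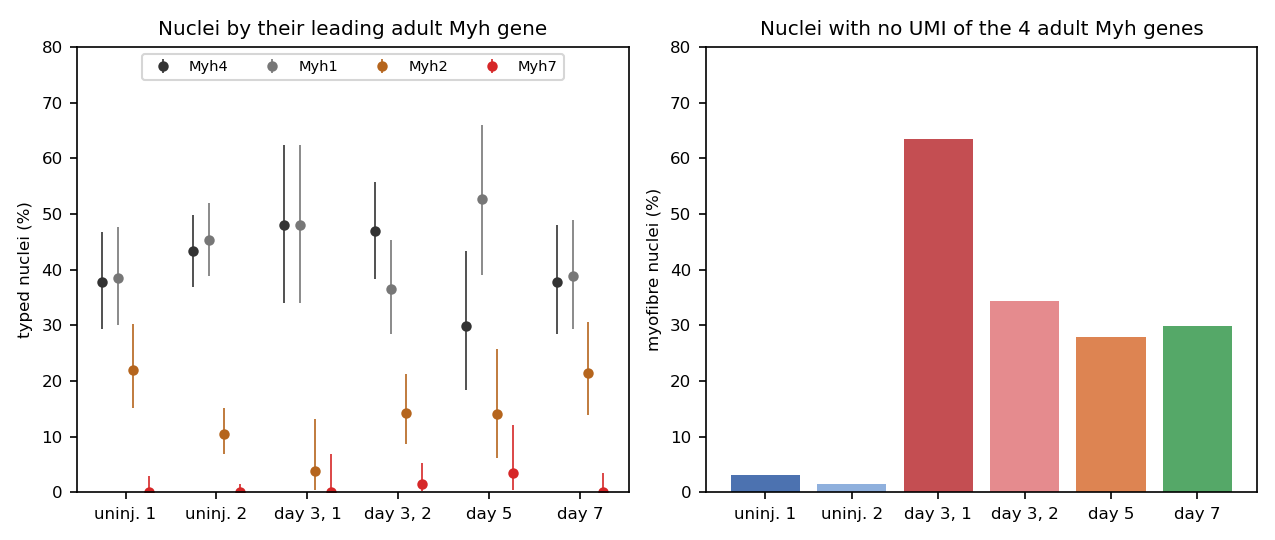
Left, percentage of typed nuclei (3 or more UMIs of the 4 adult Myh genes) led by each gene, with exact binomial intervals, by library; right, percentage of all myofibre nuclei with no UMI of these genes. Myh4 and Myh1 led most typed nuclei in every library, and nuclei without any of these UMIs went from at most 3.20% uninjured to at least 28.0% after fracture.

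The slow fibre list (10 genes, 8 tested) had 0 called genes and a median log2 change of 2.30, opposite in sign to the fast list. Tnnt1, slow troponin T, was at 9.28 and 2.87 CPM and then at 47.8 and 90.02 CPM (edgeR adjusted p = 0.053), and Tnnc1, slow troponin C, was at 5.57 and 1.43 CPM and then at 47.8 and 42.2 CPM (edgeR adjusted p = 0.058). Atp2a2, the slow calcium pump, was at 22.3 and 17.2 CPM and then at 69.0 and 224.4 CPM (edgeR adjusted p = 0.067), and its change did differ from that of the other nuclei (difference 2.53, edgeR adjusted p = 0.0092). The slow myosin Myh7 did not accompany them at day 3 replicate 1, where it was at 2.12 CPM. Genes this low in both uninjured libraries entered the test through their day 3 values, so the sign of the list's median is a description only. The same limit applies to the neuromuscular, satellite cell, acute response and stress lists, of which some genes were too low to be tested.

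Regeneration markers rose in part. Of the 10 genes of regenerating fibres 8 were tested and all were positive, 2 of them called, with a median log2 change of 3.53 and the same limit on its sign. Myh3, embryonic myosin, was at 1.86 and 10.1 CPM and then at 146.6 and 230 CPM (log2 change 4.60 ± 0.53, edgeR adjusted p = 0.029), with 36.6 CPM at day 5 and 55.6 CPM at day 7. The neonatal myosin Myh8 followed another course: 0 and 14.8 CPM uninjured, 26.6 and 50.3 CPM at day 3 (edgeR adjusted p = 0.31), and 178.3 and 164.8 CPM at days 5 and 7. Myh8 was highest at days 5 and 7 and Myh3 at day 3, an order seen in single later libraries and not tested. These sums came from few nuclei. Unthinned, Myh3 was in 1 of 156 and 3 of 251 uninjured myofibre nuclei and in 21 of 235 and 24 of 259 at day 3. It was in 4 of 118 at day 5 and 12 of 217 at day 7. Myh8 was in 0 and 6 uninjured nuclei, 5 and 14 at day 3, then 4 (day 5) and 19 (day 7). Myog, the factor of myoblast differentiation, was at 0 and 3.35 CPM and then at 36.1 and 34.5 CPM (edgeR adjusted p = 0.072). Myf6, the factor of the mature fibre, was called: it was at 13.0 and 21.1 CPM and then at 78.6 and 116.4 CPM (edgeR adjusted p = 0.043). Nuclei were also counted, unthinned, for UMIs of 2 or more of Myog, Mymk, Mymx, Myh3, Myh8 and Chrng, without the other genes of this list. Such nuclei were 0.641% and 0.797% of the uninjured myofibre nuclei and 7.23% and 11.6% at day 3, then 3.39% (day 5) and 4.61% (day 7). Endothelial nuclei counted the same way were at 0 and 0% uninjured and at 2.78% (1 of 36) and 4.48% (3 of 67) at day 3. They were at 0.474% at day 5 and at 1.43% at day 7. Immune nuclei were at 0 of 2 and 0 of 59 uninjured and at 0 of 138 and 18 of 892 (2.02%) at day 3. The higher background at day 3 thus rested on few nuclei, and its part in the myofibre shares was not tested.

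Among the injury and signalling lists, the acute response list had 2 of 10 tested genes called higher and 0 lower (median log2 change 0.73). Osmr, the oncostatin M receptor, was at 5.57 and 5.74 CPM uninjured and at 117.9 and 105.1 CPM at day 3 (log2 change 4.27 ± 0.43, edgeR adjusted p = 0.026). In the other nuclei it hardly differed, at 209.2 and 165.2 CPM and then at 174 and 152.1 CPM, and the difference between the classes was called (4.34, edgeR adjusted p = 0.0013). Stat3, the factor that acts downstream of this receptor family, was at 107.7 and 100.5 CPM and then at 450.3 and 433.6 CPM (log2 change 2.07 ± 0.32, edgeR adjusted p = 0.046). Stat3 was at 422.9 CPM at day 5 and at 222.5 CPM at day 7, and Osmr at 82.3 and 68.5 CPM, so both stood above the uninjured libraries throughout. Direct inflammatory outputs were low in the myofibre nuclei: Il6 was at 0 to 2.12 CPM and Cxcl1 at 0 to 1.76 CPM over the 6 libraries.

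Stress genes made up another 2 calls of 10 tested (median log2 change 1.77). Hmox1, haem oxygenase, had 0 UMIs in both uninjured libraries and 29 and 78 UMIs at day 3, at least 24.8-fold higher against a floor of 3 counts over the uninjured libraries (edgeR adjusted p = 0.043). The other nuclei held more, 326.2 and 173.6 CPM at day 3 against 30.8 and 27.4 CPM, and the difference between the classes was not called (edgeR adjusted p = 0.15). Mt1, metallothionein, was at 11.1 and 4.79 CPM and then at 125.3 and 86.9 CPM (edgeR adjusted p = 0.043), at 125.7 CPM at day 5 and at 2.14 CPM at day 7. Mt1 had therefore left the day 3 level by day 7 in the single library measured. Tead4, a transcription factor of the Hippo pathway, was at 22.3 and 16.8 CPM and then at 286.7 and 206.8 CPM (log2 change 3.71 ± 0.45, edgeR adjusted p = 0.032). H19, an imprinted noncoding RNA of developing muscle, was at 9.28 and 6.22 CPM and then at 47.8 and 83.3 CPM (edgeR adjusted p = 0.043), and at 136.9 CPM at day 7. H19 also rose in the other nuclei (log2 change 4.32, edgeR adjusted p = 0.016), and the difference between the classes was not called (edgeR adjusted p = 0.445).

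The remaining large increases belonged to no muscle list. Card14, a scaffold of NF-kappaB signalling, was at 3.71 and 2.87 CPM uninjured and at 509.8 and 339 CPM at day 3 (log2 change 7.09 ± 0.57, edgeR adjusted p = 0.018), at 203.5 CPM at day 5 and at 136.9 CPM at day 7. Card14 also rose in the other nuclei (log2 change 5.90, edgeR adjusted p = 0.049), and the difference between the classes was not called (edgeR adjusted p = 0.42). Rrad, a small GTPase that holds back calcium channels, had 0 and 1 UMI uninjured and 71 and 196 UMIs at day 3 (edgeR adjusted p = 0.024). Shroom3, which shapes the actin of epithelial cells, was at 3.71 and 8.61 CPM and then at 323.9 and 127.7 CPM (edgeR adjusted p = 0.043). Hhipl1 was at 0 and 2.39 CPM and then at 64.8 and 81.6 CPM (edgeR adjusted p = 0.032). Of the noncoding RNAs Platr22 was at 0 and 1.44 CPM and then at 71.2 and 63.7 CPM, and Gm12153 at 0 and 4.79 CPM and then at 135.9 and 259.9 CPM, both with an edgeR adjusted p of 0.029. At day 7, Gm12153 was still at 126.2 CPM and Rrad at 6.42 CPM.

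The lists of metabolism and of fibre structure leaned downward, with 2 calls among the metabolic genes. All 13 tested genes of glycogen and glycolysis were negative (median log2 change -1.23, Pfkfb1 called), and all 13 of oxidative metabolism (median -1.04, Ckmt2 called). Pygm, the glycogen phosphorylase of muscle, was at 978.1 and 1033 CPM and then at 150.8 and 340.4 CPM and just missed the call (edgeR adjusted p = 0.058). The 12 genes of excitation-contraction coupling had 0 calls and a median of -1.23, and the 12 of the dystrophin complex and membrane repair 0 calls and a median of -0.27. Dmd itself was at 23890 and 18820 CPM and then at 16990 and 16130 CPM (edgeR adjusted p = 0.77). The circadian clock list (14 tested) had 0 calls and a median of -0.59, autophagy (10 tested) 0 and 0.44, sarcomere stress (9 tested) 0 and 0.19, and satellite cells (5 of 9 tested) 0 and 2.52. Of 13 tested muscle transcription factors 1 was called, Myf6, with a median of -0.13, and of 6 tested myokines 1, Vegfa, with a median of -0.80.

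Days 5 and 7 had 1 library each, so their values are set beside both uninjured libraries without a test; they share those controls with day 3. Of 3632 genes at 50 CPM or more in that library or on the uninjured mean (libraries under 3 UMIs set to that floor), 349 (9.61%) were at least 2-fold above and 182 (5.01%) at least 2-fold below both uninjured libraries at day 5, and at day 7 376 (10.4%) and 260 (7.2%) of 3613. Among the fast fibre genes at that level, 2 of 12 were below and 0 above at day 5, and 7 of 12 below and 0 above at day 7. For glycogen and glycolysis it was 4 of 12 below at day 5 and 8 of 12 at day 7, and for oxidative metabolism 5 of 11 below and 1 above at day 5 and 7 of 11 below at day 7. Those shares of lower genes exceeded the share over all genes in each case. The files of both uninjured libraries list 31055 genes, and those of days 5 and 7 list 32287 and 32285. Time and the upstream gene list therefore cannot be told apart in any of these counts. Ttn, the leading rule gene, was at 43720 and 43950 CPM uninjured, 23650 and 18600 CPM at day 3, 14740 CPM at day 5 and 29250 CPM at day 7, as a description.

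The largest later differences were partly of another kind. Col19a1, a basement membrane collagen, was at 7.42 and 6.22 CPM uninjured, 66.9 and 36.9 CPM at day 3, 253.7 CPM at day 5 and 194.7 CPM at day 7. Col11a1, a fibril collagen of cartilage, and Edil3, a matrix protein, led day 7 at 318.8 and 160.5 CPM, against 3.71 and 5.26 CPM and 0 and 4.79 CPM uninjured. Chondrocyte markers were high in the same library: summed over 5 genes they were at 295.3 CPM in the day 7 myofibre nuclei against 13.8 to 105.2 CPM in the other 5 libraries. The part of chondrocyte RNA in Col11a1 and Edil3 was not tested. Hr, the hairless corepressor, was at 120.6 and 82.3 CPM uninjured and at 8.56 CPM at day 7, and Arrdc2 at 217.2 and 71.3 CPM and at 2.14 CPM. Gm48099 was at 751.7 and 83.7 CPM uninjured and at 2.29 CPM at day 5.

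Of the genes that the same ranking put first, Gse1, Cox16, Palm2 and Tlcd2 separated the libraries by the gene list used upstream, not by time. The files of both uninjured libraries and of day 3 replicate 2 list 31055 genes, and those of the other 3 libraries 32285 or 32287. Gse1 was at 16.7, 20.1 and 33.4 CPM in the first 3 and at 625.5, 681.2 and 676.1 CPM in day 3 replicate 1, day 5 and day 7. Of 4369 genes at 50 CPM or more, 17 separated by at least 5-fold in this way, 0 of which were called at day 3 or in a gene list, and 0 separated by Cell Ranger version. Separations under 5-fold were not counted.

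**Figure D5:**
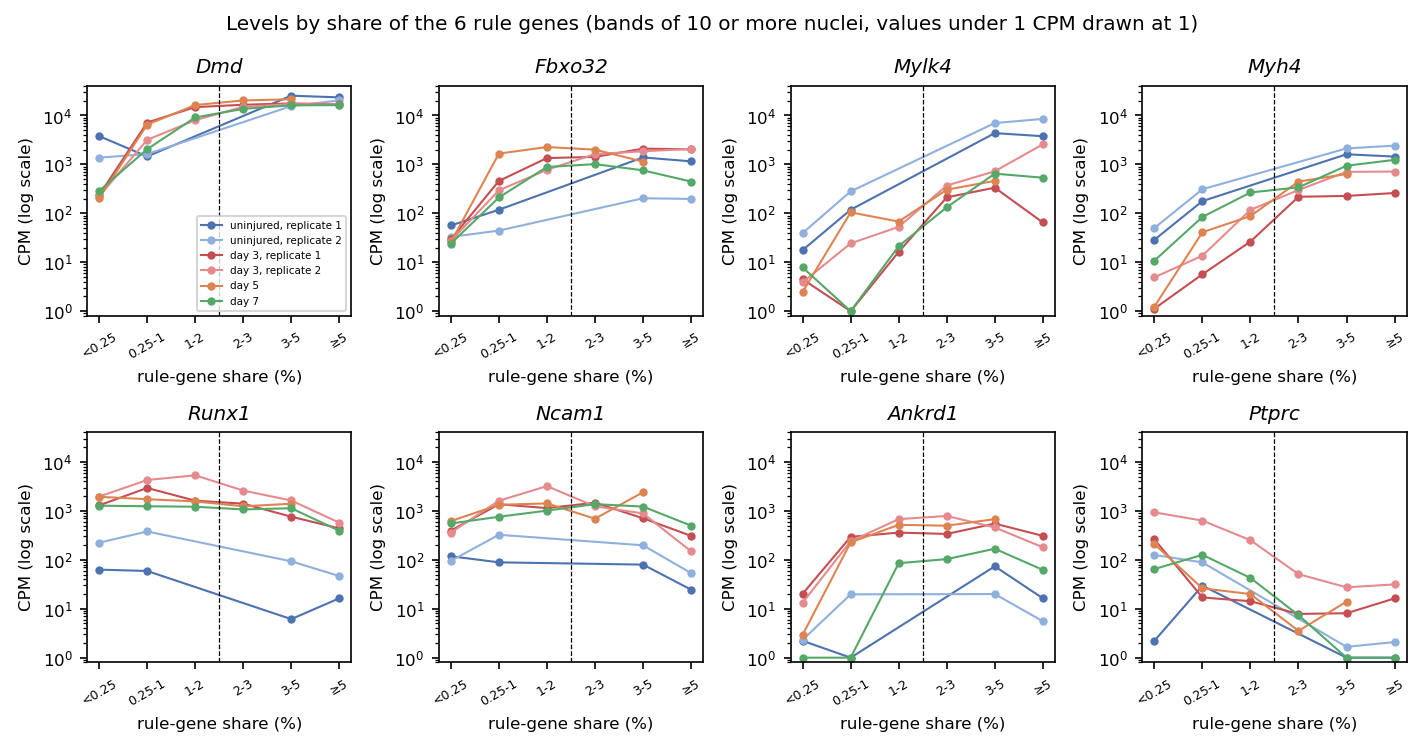
CPM (log scale) of 8 genes in nuclei grouped by their share of the 6 rule genes (horizontal axis, percent of UMIs), 1 line per library, for bands of 10 or more nuclei; the dashed line is the limit of 2%. After fracture Dmd at 1% to 2% was still at 8018 to 16340 CPM, against 202.1 to 286.5 CPM under 0.25%. Mylk4 and Myh4 at 1% to 2% were below their levels at 2% to 3%, and Runx1 was lower at 5% and over than at 2% to 3% at days 3 and 7.

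Within the myofibre nuclei, and just below the limit, the same genes varied with the share of the rule genes. In day 3 replicate 2, Runx1 was at 5337 CPM in the nuclei of 1% to 2%, 2601 CPM at 2% to 3%, 1632 CPM at 3% to 5% and 573.2 CPM at 5% and over. Mylk4 took the opposite course in these bands, at 52.9, 369.6, 723.8 and 2567 CPM. Ncam1 followed Runx1, at 3206, 1237, 888.6 and 149.2 CPM. In day 3 replicate 1 Runx1 was at 1616, 1404, 760.7 and 438.7 CPM and Ncam1 at 1141, 1468, 706.8 and 308.7 CPM, while Mylk4 was at 16.3, 212, 334.5 and 65.0 CPM. So in both day 3 libraries the nuclei richest in Ttn and the other rule genes held the least Runx1 and Ncam1, and Mylk4 was higher at a higher share except for the top band of replicate 1, which held 24 nuclei. Ptprc, the common leukocyte gene, was at 251.9, 50.9, 27.5 and 31.4 CPM over the bands of replicate 2, so RNA of immune cells also moved with the share there. In replicate 1 it was at 14.2, 7.85, 8.09 and 16.3 CPM, with no such order. The bands are cut from the same libraries by the rule's own genes, and no test was made of them.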

How the data were processed

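Single nuclei from 6 pools of mouse periosteum were sequenced with the 10x Genomics 3′ chemistry. Per the submitters' processing notes, the labels and the file headers, the authors aligned reads with Cell Ranger 6.0.0 (uninjured replicate 1, day 5, day 7) or 7.1.0 (the other libraries) to mm10, counting intronic and exonic reads, and deposited UMI counts per gene and barcode. The 30406 genes common to all files were used.

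Nuclei were selected as described in the report. The members and gene lists were chosen with earlier results of these data known. UMI counts were summed per library and tested with edgeR 4.0.16 (filterByExpr, TMM, quasi-likelihood F test, R 4.3.3) after a check on simulated data, with Benjamini-Hochberg adjustment. DESeq2 1.42.0, other limits on nuclei, no filter on low counts, doublet removal (Scrublet in scanpy 1.11.5), removal of nuclei with markers of other cells and leaving out each library were the alternatives. Named genes were those of 33 lists (305 genes), the 10 largest called changes per direction at 50 CPM or more with the same direction in all 4 pairs, the 5 largest ratios per direction at days 5 and 7 (50 CPM and 20 UMIs or more), and the 15 leading genes. Clcn1, H19, Myhas, Rpl3l, Slc2a4, Tead4, 5730419F03Rik, Xist and Ddx3y fell outside this rule and were chosen after their values were seen. Some genes that met the rule are not reported here. Shares have exact Clopper-Pearson and CPM exact Poisson intervals, and a count of 0 allows up to 3 counts. Gene coordinates are from GENCODE vM21 and promoters from RefSeq.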

Additional observations from a re-analysis of the deposited data

Results flagged for a closer look

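The following results were singled out because the day 3 change differed between myofibre and other nuclei of the same libraries by the edgeR interaction test. On the log2 scale the difference (change in myofibre minus change in other nuclei) was 4.56 for Gm12153, 4.52 for Shroom3, 4.5 for Rrad, 4.34 for Osmr, 3.43 for Hhipl1, 3.16 for Tead4, 2.81 for Mt1 and 2.66 for Ampd3. It was -4.62 for Smox, -3.13 for Slc41a3, -2.98 for Clcn1, -2.57 for Map2k6, -2.24 for Pfkfb1 and -1.91 for Vegfa. The other nuclei differed in makeup: those with 3 or more immune UMIs numbered 2 and 59 in the uninjured libraries and 138 and 892 at day 3, and endothelial ones 189 and 257 and then 36 and 67. The part of this in the differences was not tested.

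Reporter transcripts appeared in data that the comparisons did not use. Uninjured replicate 1 held 29 UMIs of EGFP in 24 barcodes and 14 UMIs of tdTomato in 12 barcodes, of which 9 and 11 UMIs lay in myofibre nuclei, although the labels give the genotype as C57BL6. Uninjured replicate 2 and day 3 replicate 2 had 0 of both.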

How the results depend on the processing

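The day 3 test called 59 genes higher and 31 lower. With a limit of 5% of rule genes it called 0 and 0, with 1% 136 and 120, with no filter on low counts 526 and 475, and with DESeq2 223 and 220. With nuclei holding markers of other cells removed it called 48 in all, 24 of them higher. Leaving out 1 library gave 31 to 289 higher and 30 to 208 lower. The test of the difference between myofibre and other nuclei called 287 higher and 241 lower. It called 32 and 45 at 5%, 702 higher at 1%, 131 higher without nuclei holding other markers, and 582 and 436 without the filter. Leaving out 1 library gave 156 to 513 higher and 111 to 442 lower. Limiting the other nuclei to under 0.25% of rule genes, chosen after seeing the data, gave 626 higher. For the test of the difference, the lower counts at 1%, without nuclei holding other markers and at 0.25% are not given here.

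The mean member share differed by -0.5 percentage points at day 3, by -12.69 at a limit of 5% and by 9.595 at 1%, so its sign followed the limit. The share of Myh4 in the myosin UMIs differed by 0.895 points, by -11.19 at 5% and by -23.33 without nuclei holding other markers, where Myh2 differed by 20.58 in place of -4.579. The share of nuclei with a UMI differed for Musk by 13.98 points, by 25.54 without nuclei holding other markers and by 30.56 without thinning. For Ncam1 it differed by 16.45, by 7.273 at 5% and by 39.93 without thinning. For Runx1 it differed by 29.86, by 35.51 at 1%, by 23.61 without nuclei holding other markers, by 42.16 at 1000 UMIs and by 67.88 without thinning. The causes were not tested. Of 34 followed genes, Ncam1 also left the calls with nuclei under 5000 genes or doublets removed, Slc2a4 with nuclei under 5000 genes, and Stat3 with a mitochondrial limit of 5% and no ribosomal limit. Of 464 values 0 reversed, which the choice of called genes made likely.

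No paired analysis was possible because the labels give no replicate numbers; those used here follow the order of deposit and only name the libraries. Days 5 and 7 rest on 1 library each, and genes under a few UMIs per library cannot be placed at this depth.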
